A study of Mus musculus with 9 samples.

Results

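The 5′ tRNA-halves of nuclear transfer RNAs (tRNAs) in mouse blood serum, below called tiRNAs, were examined in 9 small RNA libraries. A 5′ tiRNA was taken as a distinct read of 28 to 36 bases whose every alignment began at the first base of a mature nuclear tRNA reference, and 2810 of the 41240 distinct sequences on tRNA references met this rule. Together they held 55688 of 555585 reads. The libraries came from serum taken at week 20. The study is about salvianolic acid B (SalB), a phenolic acid of Salvia miltiorrhiza, in atherosclerosis, with 3 libraries from mice on a normal diet, 3 from mice on a high fat diet and 3 from mice on a high fat diet with SalB. The labels give no dose, age or sex, carry the same disease term for all 3 groups, and do not state whether replicates were separate animals, so a p-value measures the spread between these libraries, which may be technical. Titles of the normal diet libraries carry the strain prefix C57 and the other titles do not, and the strain of those mice is not stated in the labels, so diet and strain cannot be told apart in comparisons with normal diet. Below, the third group is called SalB, replicates are named by group and number, and values for 3 libraries are always given in the order of replicates 1, 2 and 3. Where 3 such sets follow each other, they are in the order normal diet, high fat diet, SalB.

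A tRNA-half, also called a tiRNA, arises when a mature tRNA is cut once in its anticodon loop, the loop that carries the bases read against the codon. In mammals the secreted ribonuclease angiogenin makes such cuts, and serum is known to carry 5′ tiRNAs of a few tRNAs, those for glycine and glutamate above all. Certain base modifications of the loop are known to shield tRNAs from cleavage: queuosine at the first anticodon base of the aspartate, histidine, asparagine and tyrosine tRNAs, and the methyl group that DNMT2 places on a cytosine of the loop, on the 3′ side of the anticodon, in aspartate, glycine and one of the valine tRNAs. To compare ends across tRNAs, the first anticodon base was set to position 34 in each, so that the anticodon holds positions 34 to 36, the loop 32 to 38 and the 5′ strand of the anticodon stem 27 to 31. The position of the last base on this scale is called the aligned end. The name tiRNA is used here for every read that meets the rule on start and length, including reads that end in the stem, before the loop.

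The sequences on which the results turn are shown 5′ to 3′, with bases of the anticodon loop in capitals, as read in the deposited files. The first set holds Gly-GCC tiRNAs that differ in where they end, and a Gly-GCC-1 tiRNA that differs from Gly-GCC-2, -3 and -4 near the 5′ end.
Gly-GCC-2/3/4, 29 bases: gcattggtggttcagtggtagaattctcg
Gly-GCC-2/3/4, 30 bases: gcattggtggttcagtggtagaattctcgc
Gly-GCC-2/3/4, 31 bases: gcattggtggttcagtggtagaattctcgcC
Gly-GCC-2/3/4, 32 bases: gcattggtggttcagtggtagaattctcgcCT
Gly-GCC-2/3/4, 33 bases: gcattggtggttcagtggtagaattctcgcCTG
Gly-GCC-2/3/4, 35 bases: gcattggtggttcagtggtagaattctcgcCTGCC
Gly-GCC-1, 30 bases: gcatgggtggttcagtggtagaattctcgc
Variants of these with 1 base unlike the reference follow, named by reference base, position from the 5′ end and base read.
Gly-GCC C30T, 30 bases: gcattggtggttcagtggtagaattctcgt
Gly-GCC C31T, 31 bases: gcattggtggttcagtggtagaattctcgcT
Gly-GCC G6T, 31 bases: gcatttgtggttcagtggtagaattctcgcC
The Asp-GTC tiRNAs are shown because they carry many of the calls outside Gly-GCC.
Asp-GTC-1/4, 31 bases: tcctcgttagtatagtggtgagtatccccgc
Asp-GTC-1/4 C32T, 32 bases: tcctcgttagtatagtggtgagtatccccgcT
Asp-GTC-1/4, 34 bases: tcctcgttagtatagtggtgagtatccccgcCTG
Asp-GTC-2, 32 bases: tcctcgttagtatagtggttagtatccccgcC
Asp-GTC-2, 33 bases: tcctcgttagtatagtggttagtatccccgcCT
Asp-GTC-2, 34 bases: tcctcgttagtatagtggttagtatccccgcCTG
The last set gives 1 abundant tiRNA for each of several other families, and the Pro tiRNAs.
Lys-CTT-2, 35 bases: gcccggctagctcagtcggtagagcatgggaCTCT
Lys-TTT-1, 33 bases: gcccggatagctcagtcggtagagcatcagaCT
Glu-TTC-1, 33 bases: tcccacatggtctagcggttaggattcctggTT
Val-AAC-1 and Val-CAC-2, 32 bases: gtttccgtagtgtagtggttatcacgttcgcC
Gly-CCC-1, 33 bases: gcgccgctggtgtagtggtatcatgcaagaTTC
His-GTG-2, 31 bases: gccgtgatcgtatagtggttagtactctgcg
Pro-AGG/CGG/TGG, 30 bases: ggctcgttggtctaggggtatgattctcgc
Pro-AGG/CGG/TGG, 31 bases: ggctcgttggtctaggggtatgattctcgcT
Pro-AGG/CGG/TGG, 32 bases: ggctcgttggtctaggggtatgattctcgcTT
The 28-base start that Gly-GCC-2, -3 and -4 share made up 78.9 to 91.0% of the mismatch-free Gly-GCC tiRNA reads over the 9 libraries. Asp-GTC-1 and -4 share a start that took 74.0 to 91.8% of the mismatch-free Asp-GTC tiRNA reads over the 9 libraries. These tRNAs are multicopy: RefSeq (GRCm38.p6) lists 14 Gly-GCC genes, 12 Glu-CTC genes and 16 Asp-GTC genes, and a tiRNA cannot be traced to 1 of them.

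Few tRNAs supplied the tiRNAs. The 2810 sequences bore 42 family names (amino acid and anticodon, joined where a read fits several), and the 5 largest families held 92.1% of tiRNA reads. Gly-GCC alone held 33068 tiRNA reads (59.4% of the total), Glu-CTC 7370, Asp-GTC 4480, Lys-CTT 3587 and Glu-TTC 2771. SalB replicate 2 supplied much of Glu-CTC: without it that family had 3008 reads, below Asp-GTC (4376) and Lys-CTT (3196). Only 8 names reached 20 tiRNA reads in every library, the others of these being the joined Val-AAC/Val-CAC (921), Gly-CCC (588) and Lys-TTT (546). The 10 families listed as known sources of tiRNAs in serum, with names joined among them, held 97.3% of tiRNA reads. That list was chosen with earlier results of these data known, so this share is not independent of them. Of the queuosine families, Asn-GTT and Tyr-GTA had 0 tiRNA reads beside 4480 of Asp-GTC and 495 of His-GTG. A read that begins before the first base of the mature reference is outside the rule, so these counts, that of His-GTG included, leave such reads out. The 8 families whose first anticodon base is read as inosine had 107 tiRNA reads of their own, 102 of them Val-AAC, with 1 each for Ala-AGC and Thr-AGT and 3 for Pro-AGG. A further 1778 reads fit such a family and another one alike, chiefly Val-AAC/Val-CAC (921), Pro-AGG/Pro-CGG/Pro-TGG (724) and Leu-AAG/Leu-TAG (124). Most sequences were rare: 1609 of the 2810 were seen in 1 library only, while the 128 seen in all 9 held 81.2% of tiRNA reads. Only 230 of the 2810 matched a reference without a mismatch. Reads that fit several families, such as Val-AAC/Val-CAC, made up 3.78% of tiRNA reads. The length limits cut through a continuous range: reads of 27 bases numbered 1783 just outside it, those of 28 bases 1868 and of 36 bases 1731 just inside, and those of 37 bases 182 outside. SalB replicate 2 alone supplied 1105 of the reads of 27 bases and 1356 of those of 28 bases.

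tiRNAs took a smaller part of the tRNA reads in every SalB library than in any normal diet library. The share was 8.76, 14.2 and 17.8% under normal diet, 9.59, 6.89 and 12.6% under high fat diet and 6.35, 6.79 and 8.04% with SalB. The high fat diet libraries overlapped both of the other groups. The exact permutation test over the 280 partitions of the 9 libraries did not reach 0.05 (p = 0.0786), and the exact two-sided p for SalB against normal diet was 0.1, the smallest that 3 against 3 allows. Reads on all tRNA references ranged from 28191 (high fat diet replicate 2) to 156333 (SalB replicate 2), and counting error was small beside the spread, with an exact (Clopper-Pearson) 95% interval of 6.60 to 7.19% in the shallowest library. The denominator mattered: with reads of mature nuclear tRNAs alone below the line, the difference between SalB and high fat diet turned from -2.65 to 1.77 percentage points. In serum, fewer source cells and fewer tiRNAs released per cell cannot be told apart.

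**Figure D1:**
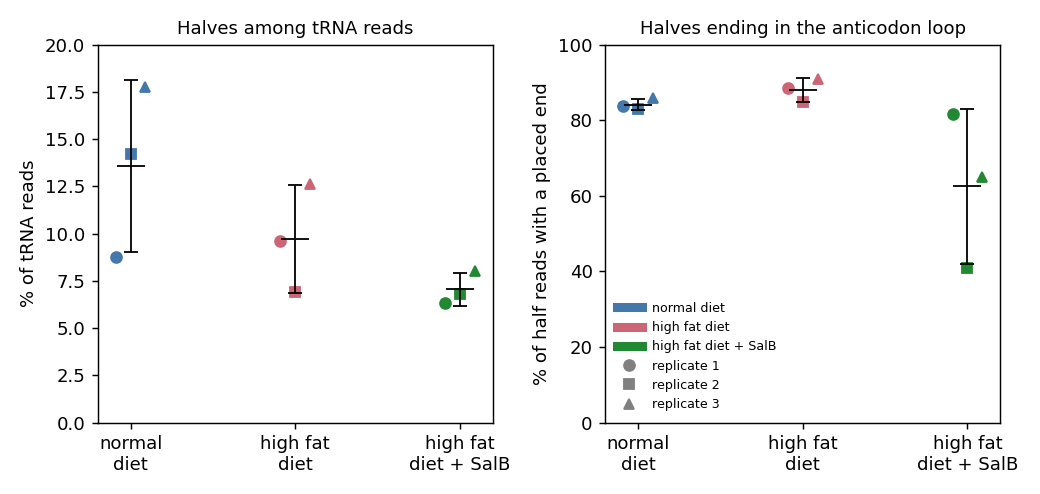
Share of tRNA reads that were 5′ tiRNAs (left, % of tRNA reads) and share of tiRNA reads whose last base lay in the anticodon loop (right, %), for each of the 9 libraries; points are libraries, the black bars mean ± SD (n = 3). The SalB libraries lie at 6.35 to 8.04% on the left, and on the right they spread from 40.8 to 81.7%, below all others.

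The share of tiRNA reads that ended inside the anticodon loop differed between groups, while the mean aligned end over all tiRNAs did not pass its test. Under normal diet 83.6, 82.9 and 85.8% of tiRNA reads ended inside the anticodon loop, and under high fat diet 88.6, 84.7 and 91.0%. With SalB the shares were 81.7, 40.8 and 65.0%. Every SalB library lay below every other library, and the loop share passed the exact permutation test (p = 0.00714, adjusted over 12 measures of length and end p = 0.0321). The fall rested on SalB replicate 2 for much of its size: the difference from high fat diet was -25.6 percentage points with all libraries and -14.8 without that one. Weighting families equally, it was -13.5. The mean aligned end was 33.3, 31.2 and 32.5 with SalB (exact permutation p = 0.354 over the 3 groups, adjusted over the same 12 measures p = 0.53). SalB replicate 1 had the furthest mean end of the 9 libraries and SalB replicate 2 the nearest to the 5′ end.

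Every tiRNA starts at the first base, so within a family its length fixes its end. The length shares below therefore show the shift in loop share again and are no separate result. tiRNAs of 28 bases made up 1.06, 1.31 and 0.915% of tiRNA reads under normal diet, 0.771, 0.823 and 0.552% under high fat diet and 1.90, 12.8 and 3.01% with SalB. tiRNAs of 29 bases made up 2.04, 1.38 and 1.63%, then 0.977, 1.70 and 0.837%, then 2.45, 12.4 and 6.79%. Both shares were higher in each SalB library than in each library of the other groups (exact permutation test, adjusted p = 0.0321 for each of these lengths). tiRNAs of 33 bases went the other way, at 20.9, 18.7 and 21.8% under normal diet, 24.1, 20.4 and 26.4% under high fat diet and 16.5, 10.5 and 15.7% with SalB (adjusted p = 0.0321). At 30 bases the shares were 9.34, 10.7 and 9.15%, 6.15, 7.36 and 4.70% and 9.81, 22.4 and 19.2%, and that test missed the threshold (adjusted p = 0.0514). The 31-base class was the largest single length, with 16378 of the 55688 tiRNA reads, and did not pass (adjusted p = 0.379). Mean length was 32.2 ± 0.212, 32.4 ± 0.189 and 31.8 ± 0.963 bases (SD, n = 3 each), and that test did not pass (exact permutation p = 0.418). SalB replicate 2 had the shortest tiRNAs, with a mean of 30.7 bases, while SalB replicate 1 had the longest, with 32.7. Of the 12 measures, which depend on each other, 4 passed with all libraries. That number fell to 0 or 1 when any 1 normal or high fat diet library was left out, and was 7 without SalB replicate 1 and 0 with families weighted equally.

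**Figure D2:**
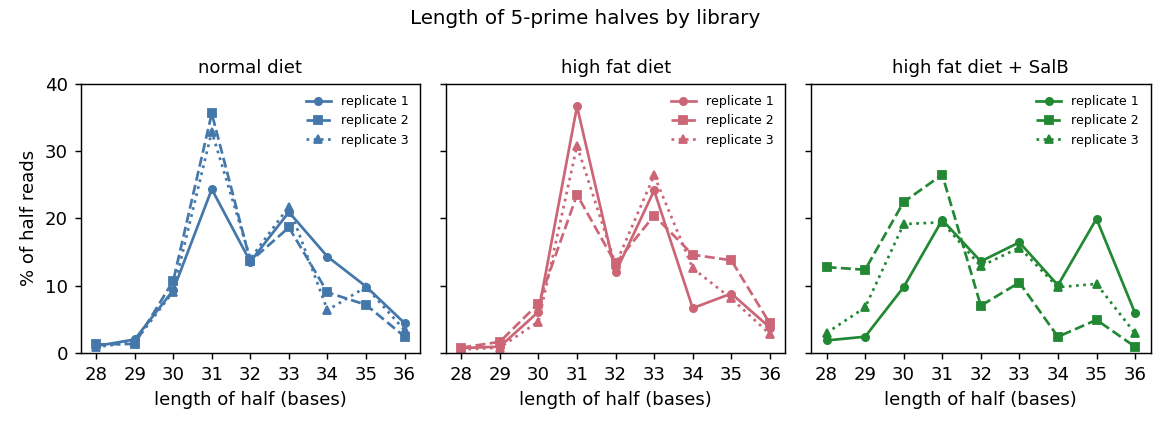
Length of 5′ tiRNAs in bases (horizontal) against the percentage of a library's tiRNA reads (vertical), 1 line per library and 1 panel per group. Normal and high fat diet libraries peak at 31 bases; SalB replicate 2 carries 12.8% of its tiRNAs at 28 bases, and SalB replicate 1 has its highest value, 19.9%, at 35.

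The most common ends, pooled over the 9 libraries, varied from tRNA to tRNA. Gly-GCC tiRNAs ended most often at position 32, the first base of the loop (40.5% of its tiRNA reads), and next at 34, the first anticodon base (16.7%). Glu-CTC tiRNAs ended at the uridine before the anticodon, position 33 (24.9%), and in the stem at 30 (21.9%) and 31 (20.3%). Without SalB replicate 2, which held 4362 of the 7370 reads, these were 40.2, 11.4 and 15.3%. Asp-GTC tiRNAs ended most often at 34, the base that carries queuosine (24.1%), then at 32 (18.6%) and 35 (17.4%). Lys-CTT tiRNAs spread over 33, 34 and 35 (22.2, 20.8 and 25.0%, or 25.2, 24.6 and 16.3% without normal diet replicate 3), and those of the other lysine tRNA, Lys-TTT, gathered at 33 (54.8%). Glu-TTC tiRNAs ended at 33 (44.2%) and 29 (16.6%), the joined Val-AAC/Val-CAC tiRNAs at 32 (57.0%) and Gly-CCC tiRNAs at 34 (42.2%). Histidine tiRNAs, also of a queuosine tRNA, ended at 31 (28.5%), 30 (27.1%) and 33 (24.6%), with 2.42% at 34. Without SalB replicate 2 the first 3 of these were 36.1, 15.6 and 36.8%.

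Within Gly-GCC the profile of ends differed in shape between libraries. tiRNAs ending at 34 were 19.8, 17.6 and 18.5% of its tiRNA reads under normal diet, 24.8, 18.1 and 21.8% under high fat diet and 11.2, 5.33 and 8.25% with SalB, with no overlap between SalB and the others. tiRNAs ending at 31, the last base of the stem, were 9.97, 9.58 and 9.99%, 4.45, 5.22 and 4.44% and 9.04, 16.8 and 24.5%. The high fat diet libraries were the lowest there. At 29, SalB replicate 2 stood at 18.0% and no other library above 1.56%. For Glu-CTC the share ending at 33 was 34.6, 39.9 and 41.2%, 32.8, 43.9 and 59.5% and 32.3, 14.3 and 37.1%, so that SalB replicate 2 was the library that departed. For Asp-GTC the share ending at 34 was 30.1, 30.4 and 19.4%, 24.0, 30.1 and 23.1% and 14.0, 17.3 and 16.5%. These single positions are given as descriptions and were not tested.

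The mean aligned end of a family was the tested measure, and of the 8 families none passed with adjustment over the 8 (exact permutation test, 1 with an unadjusted p under 0.05). Glu-CTC came nearest: its mean end was 32.5, 32.3 and 32.3 under normal diet, 32.3, 32.5 and 32.6 under high fat diet and 32.2, 30.4 and 31.9 with SalB (exact permutation p = 0.00714, adjusted p = 0.0571). The 3 SalB libraries all lay below the others, and without SalB replicate 2 the difference from high fat diet went from -1.0 to -0.47 bases. For Gly-GCC the means were 32.8 ± 0.136, 33.2 ± 0.179 and 32.8 ± 0.837 (SD, n = 3 each), and for Asp-GTC 33.3 ± 0.0501, 33.1 ± 0.145 and 33.1 ± 0.265. With mismatched reads left out 2 families passed, and without SalB replicate 1 there were 3.

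**Figure D3:**
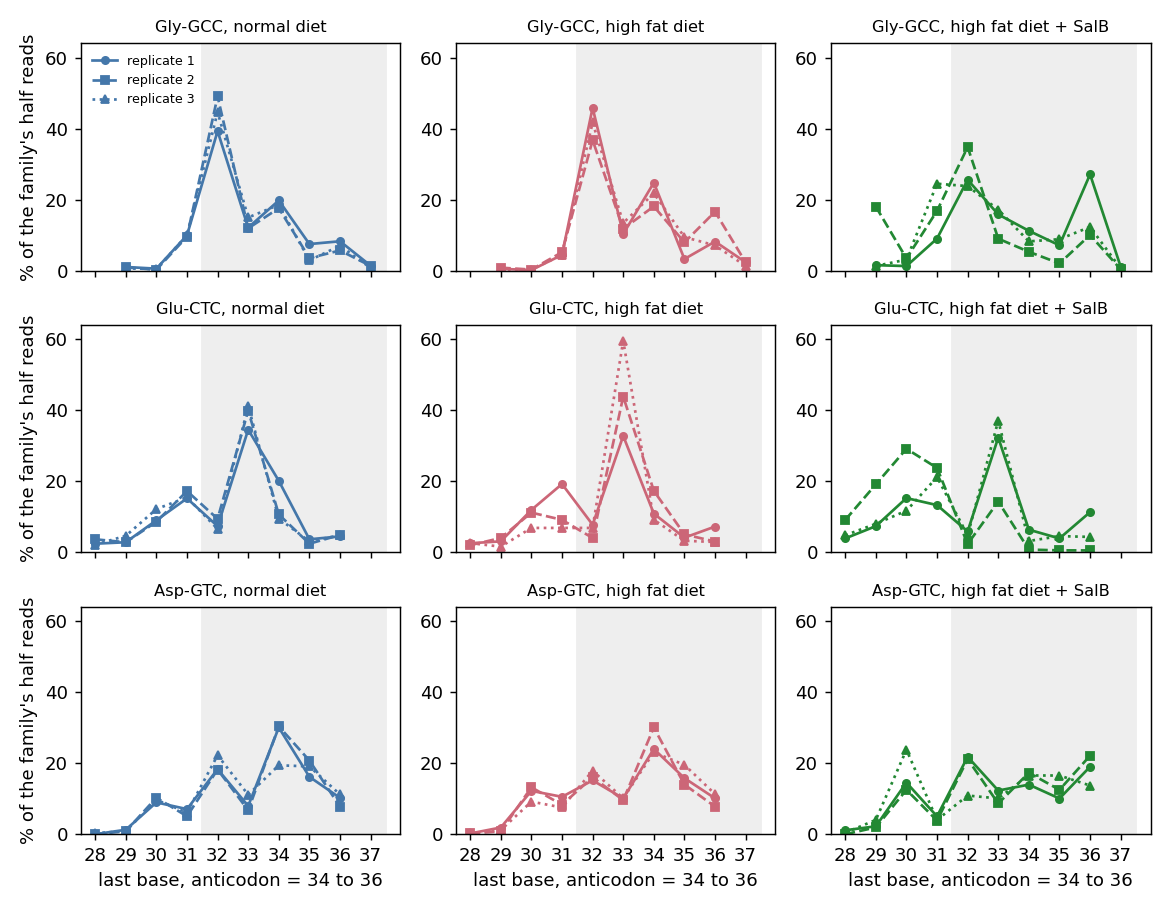
Aligned end of tiRNAs (horizontal; positions 34 to 36 are the anticodon, the grey band the loop up to 37) against the percentage of the family's tiRNA reads (vertical), for Gly-GCC, Glu-CTC and Asp-GTC in rows and the 3 groups in columns, 1 line per library. Gly-GCC peaks at 32 in all normal and high fat diet libraries, at 36.7 to 49.1%; with SalB, replicate 1 has its highest value at 36 (27.1%), replicate 2 at 32 (34.8%) and replicate 3 at 31 (24.5%).

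Of the 8 families, Glu-CTC alone passed the test on shares of tiRNA reads. It took 6.45, 5.50 and 6.47% of tiRNA reads under normal diet, 3.61, 5.04 and 5.41% under high fat diet and 10.2, 41.1 and 13.5% with SalB. All SalB libraries were above all others, by far the most in replicate 2 (exact permutation test, p = 0.00357, adjusted over 8 families p = 0.0286). The difference from high fat diet was 16.9 percentage points, and 7.16 without SalB replicate 2. The call was lost when any 1 normal or high fat diet library was left out. Asp-GTC took 21.0, 13.4 and 7.59%, 8.93, 19.9 and 7.57% and 4.53, 0.980 and 7.69%, with overlap at the edges (adjusted p = 0.443, exact permutation). Gly-GCC stood at 60.3 ± 8.53%, 62.0 ± 12.1% and 52.7 ± 8.98% (SD, n = 3 each). The adjusted p of the other families, Gly-GCC included, ran from 0.443 to 0.793.

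**Figure D4:**
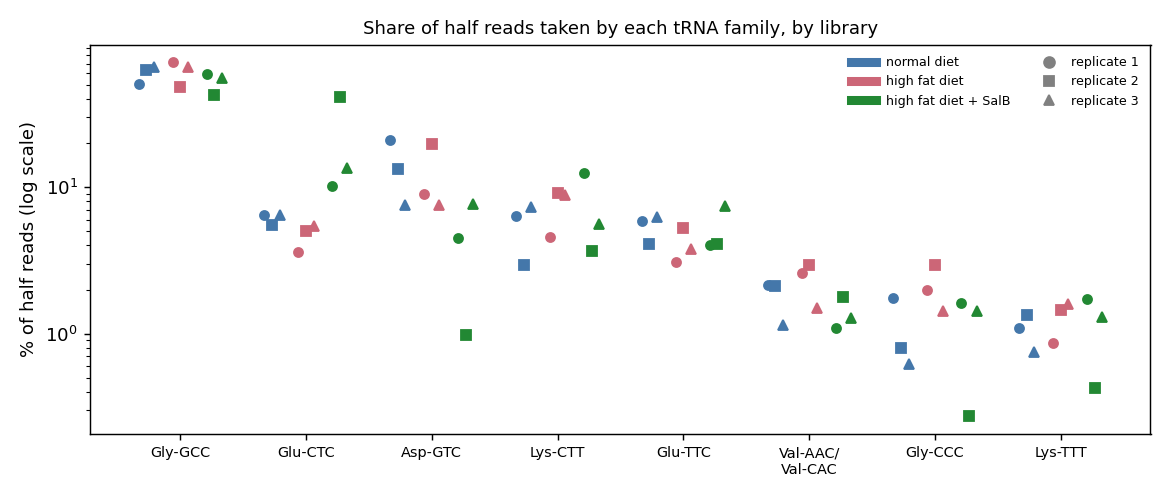
Percentage of tiRNA reads (vertical, log scale) taken by each of the 8 families with at least 20 tiRNA reads in every library, 1 point per library. Glu-CTC stands at 10.2 to 41.1% with SalB and at 3.61 to 6.47% elsewhere; Asp-GTC is at 0.980% in SalB replicate 2.

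Single tiRNAs were then compared as normalised CPM, reads scaled to 1 library size fixed by all tRNA fragments, with limma-voom fitted over 733 fragments and Benjamini-Hochberg adjustment over all of them at 0.05. Of the 2810 tiRNAs, 85 were abundant enough to be tested, and these held 77.7% of tiRNA reads. The scale matters here because SalB replicate 2 had a scaling factor of 0.471 where the other libraries lay between 0.917 and 1.21. Scaling by total counts moved the median of all fragments from -0.15 to -1.0 for SalB against high fat diet and from -0.10 to -0.98 for SalB against normal diet. Fold changes below use the first scaling of each pair, and no called tiRNA or sum named below changed sign under the other.

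Between the diets no tiRNA was called. None of the 733 fragments passed (0%), and none of the 85 tiRNAs, with a smallest adjusted p of 0.175 and 12 tiRNAs at an unadjusted p under 0.05. limma on log2 values also called 0. The 85 tiRNAs had a median log2 fold change of -0.50, beside 0.01 for all fragments. The 3 with the smallest p were all lower under high fat diet in every library. The Asp-GTC C32T tiRNA stood at 957, 981 and 834 CPM under normal diet and 203, 347 and 259.8 under high fat diet (log2 fold change -1.83 with SE 0.43, adjusted p = 0.175, limma-voom). The 32-base Pro tiRNA stood at 338, 896 and 654 CPM under normal diet and 67.6, 86.8 and 86.6 under high fat diet, where the high fat diet values rest on 2 or 3 reads a library. It passed the filter on low counts through the normal diet libraries alone, so it was tested only because it is high there. The Asp-GTC C32T tiRNA also needed its normal diet libraries to pass that filter. The Gly-GCC C30T tiRNA stood at 1069, 2175 and 2072 CPM under normal diet and 586, 347 and 577 under high fat diet. Their groups did not overlap, which goes with their choice as the smallest p of the 85 and carries no weight of its own. None passed. Without the filter on low counts, 12 tiRNAs were called, 2 higher and 10 lower.

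With SalB against high fat diet tiRNAs moved in both directions. Of the 85 tiRNAs 8 rose and 10 fell, beside 34.2% of the 733 fragments called in either direction (17.6% higher and 16.6% lower, against 9.41% and 11.8% of the tiRNAs). Of the 22 tested tiRNAs that end in the stem, 6 rose and 1 fell (median log2 fold change 1.63), and of the 63 that end in the loop 2 rose and 9 fell (median -0.50). The medians were -0.11 for the 85 and -0.15 for all fragments. Of the 14 tested Asp-GTC tiRNAs 0 rose and 5 fell. Under total counts 5 tiRNAs rose and 32 fell. Calls among tiRNAs numbered 5 without high fat diet replicate 1, 11 without replicate 2 and 10 without replicate 3, and 12 without SalB replicate 2.

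Of the 8 tested Gly-GCC tiRNAs that end in the stem, 4 rose and 0 fell. The 29-base tiRNA stood at 22.5, 0 and 231 CPM under high fat diet and 472, 2738 and 1387 with SalB. The rise was the largest of any called tiRNA (log2 fold change 4.46 with SE 1.16, adjusted p = 0.0136, limma-voom), though it rests on 0 to 8 reads in the high fat diet libraries. This tiRNA passed the filter on low counts through the SalB libraries and normal diet replicate 3, and through no high fat diet library. It was tested only because it is high with SalB, so the size of its rise carries no weight of its own. The 30-base tiRNA stood at 1577, 824 and 2136 CPM under high fat diet and 1888, 11355 and 7237 with SalB, where SalB replicate 1 lay below high fat diet replicate 3 (log2 fold change 1.90 with SE 0.67, adjusted p = 0.0459). Its C30T variant did not overlap between the groups, at 586, 347 and 577 CPM under high fat diet and 1138, 2054 and 2887 with SalB (log2 fold change 1.86 with SE 0.45, adjusted p = 0.00994). The Gly-GCC-1 tiRNA of 30 bases, from another gene copy group, moved the same way, at 203, 217 and 549 CPM under high fat diet and 638, 1157 and 1875 with SalB (log2 fold change 1.86 with SE 0.56, adjusted p = 0.0247). The calls were lost in 2 of 15 alternatives for the 29-base tiRNA (without high fat diet replicate 1 or 2, adjusted p up to 0.0779), 8 of 16 for the 30-base tiRNA (without normal diet replicate 2, any 1 high fat diet library or SalB replicate 2 or 3 among them, adjusted p up to 0.148), 1 of 16 for C30T (total counts) and 3 of 16 for Gly-GCC-1 (total counts, and without high fat diet replicate 1 or 2).

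Of the 29 tested Gly-GCC tiRNAs that end in the loop, 4 fell and 1 rose. The 33-base tiRNA stood at 10745, 3557 and 13367 CPM under high fat diet and 3054, 2786 and 2362 with SalB, so that the SalB libraries were close together and below all others (log2 fold change -1.59 with SE 0.52, adjusted p = 0.0347, limma-voom). The 31-base tiRNA, the most abundant of all, stood at 13673, 4511 and 15965 CPM under high fat diet and 5968, 23466 and 6262 with SalB and was not called (log2 fold change -0.07 with SE 0.68, adjusted p = 0.940). Its G6T variant was, at 4730.3, 2429 and 5572 CPM under high fat diet and 1443, 1440.0 and 1312 with SalB (log2 fold change -1.52 with SE 0.47, adjusted p = 0.0271). The C31T variant stood at 7298, 2646 and 7882 CPM under high fat diet and 3248, 3706 and 3449.8 with SalB, the 32-base tiRNA at 3311, 1475 and 7449 CPM under high fat diet and 3276, 4273 and 5399.6 with SalB, and the 35-base tiRNA at 2973, 2819.6 and 3522 CPM under high fat diet and 5635, 3989.6 and 3525 with SalB. None of these 3 was called (adjusted p = 0.323, 0.680 and 0.336). Both calls were lost without high fat diet replicate 1 or 3 or without any 1 SalB library (adjusted p up to 0.130 and 0.1).

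Asp-GTC tiRNAs were lower at every end tested, and 5 of 14 fell past the threshold. The 34-base tiRNA of Asp-GTC-1 and -4, which ends at the queuosine position, stood at 1194, 2342 and 1357 CPM under high fat diet and 389, 212 and 637 with SalB, with no overlap (log2 fold change -2.08 with SE 0.49, adjusted p = 0.00850, limma-voom). This call held under all 16 alternatives run (adjusted p up to 0.0445). The same tiRNA of Asp-GTC-2 stood at 383, 868 and 462 CPM under high fat diet and 27.8, 47.2 and 262 with SalB, with 1 to 7 reads in the SalB libraries (log2 fold change -2.62 with SE 0.89, adjusted p = 0.0399). The 31-base tiRNA, ending in the stem, stood at 541, 651 and 433 CPM under high fat diet and 167, 47.2 and 150.0 with SalB (log2 fold change -2.26 with SE 0.58, adjusted p = 0.0130), a call lost without SalB replicate 2 (adjusted p = 0.0936). That of the Asp-GTC-2 tiRNA was lost in 6 of 16 alternatives, each leaving out 1 library (any but normal diet replicates 2 and 3 and SalB replicate 3). Of the 10 tested Glu-CTC tiRNAs 3 rose and 0 fell (median log2 fold change 2.13), beside 17.6% of the 733 fragments called higher. These are variants of 1 family and no separate replicates, and SalB replicate 2 held 4362 of its 7370 tiRNA reads. The 1 tested Gly-CCC tiRNA, of 33 bases, fell, at 766, 868 and 693 CPM under high fat diet and 194, 307 and 337 with SalB (log2 fold change -1.47 with SE 0.42, adjusted p = 0.0208). Leaving out high fat diet replicate 1 or 2 or SalB replicate 1 or 2 ended it (adjusted p up to 0.0992).

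**Figure D5:**
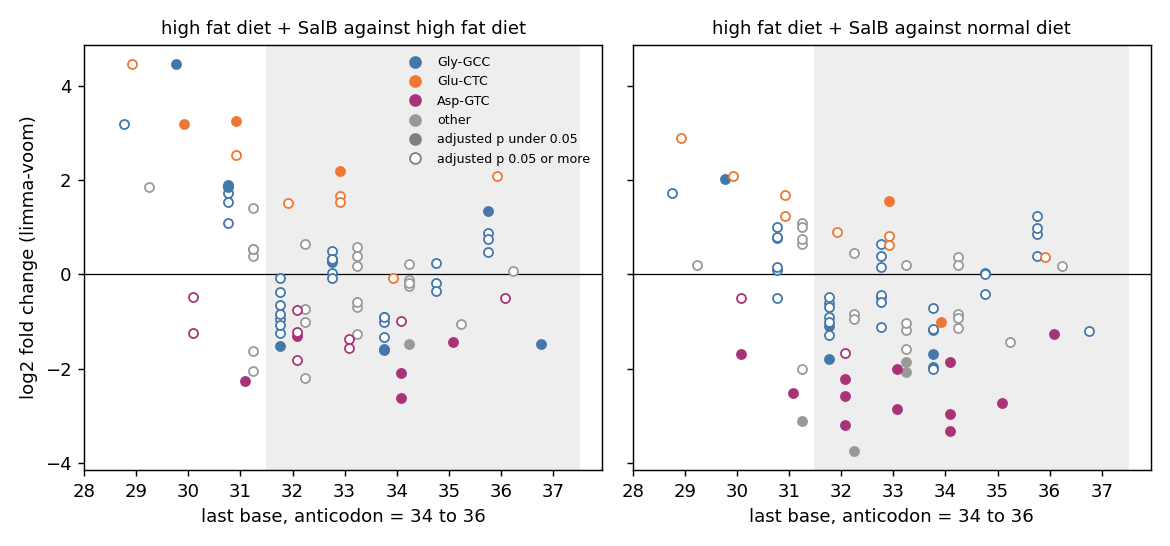
limma-voom log2 fold change (vertical) of the 85 tested tiRNAs against aligned end (horizontal; positions 34 to 36 are the anticodon, the grey band the loop up to 37), for SalB against high fat diet (left) and against normal diet (right); each point is 1 tiRNA, filled where adjusted p is under 0.05, coloured by family and shifted sideways for legibility. On the left Gly-GCC and Glu-CTC tiRNAs ending before the loop lie above 0, and all 14 Asp-GTC tiRNAs lie below 0 in both panels.

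Against normal diet most tested tiRNAs of Asp-GTC fell. Of the 85 tiRNAs 2 rose and 21 fell, beside 39% of all fragments called (20.5% higher and 18.6% lower, against 2.35% and 24.7% of the tiRNAs). Asp-GTC supplied 12 of the 21, out of 14 tested. All 3 Pro tiRNAs tested, of 30, 31 and 32 bases, fell, the last tested only through its normal diet libraries. The other tested Pro tiRNAs, and the 32- and 33-base Asp-GTC-2 tiRNAs below, also needed normal diet libraries to pass the filter on low counts. They reached its level in no SalB library. Shorter Pro tiRNAs, which were not tested, went the other way in share. Those of 28 bases made up 1.43, 0 and 0.442% of Pro tiRNA reads under normal diet and 8.33, 43.4 and 58.6% with SalB. Those of 29 bases made up 0, 1.99 and 1.77% and then 8.33, 24.2 and 31.4%. SalB replicate 1 had 12 Pro tiRNA reads in all. The sum of all Pro tiRNAs was not called (log2 fold change -1.38 with SE 0.70, adjusted p = 0.154, limma-voom), at 1970.0, 6439.6 and 3142 CPM under normal diet and 333, 2337 and 2625 with SalB, with overlap. This comparison shares the SalB libraries with the one before and mixes diet, treatment and possibly strain. The 34-base tiRNA of Asp-GTC-1 and -4 stood at 3377, 3923 and 1863 CPM under normal diet (log2 fold change -2.96 with SE 0.48, adjusted p = 9.27e-04, limma-voom), and that of Asp-GTC-2 at 901, 1493 and 514 (log2 fold change -3.32 with SE 0.87, adjusted p = 0.0122). The Asp-GTC-2 tiRNAs of 32 and 33 bases stood at 619, 1194 and 570.1 and at 422, 299 and 375 CPM under normal diet, and at 111, 23.6 and 112 and at 0, 70.8 and 112 with SalB (log2 fold changes -3.19 and -2.85). The 31-base Pro tiRNA stood at 253, 981 and 946 CPM under normal diet and 55.5, 0 and 112 with SalB (log2 fold change -3.74 with SE 1.03, adjusted p = 0.0146), and the 30-base Pro tiRNA at 591, 2218 and 375 CPM under normal diet and 27.8, 236 and 37.5 with SalB (log2 fold change -3.10 with SE 1.06, adjusted p = 0.0373). The 33-base Gly-GCC tiRNA stood at 5910.1, 11301 and 16602 CPM under normal diet and also fell (log2 fold change -1.95 with SE 0.51, adjusted p = 0.0117). Of those that rose, the 29-base Gly-GCC tiRNA, tested only because it is high with SalB, stood at 197, 171 and 431 CPM under normal diet (log2 fold change 2.03).

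Of these, the calls of the 34-base Asp-GTC-1 and -4 tiRNA, the 32-base Asp-GTC-2 tiRNA and the 33-base and G6T Gly-GCC tiRNAs held under every alternative run. The 34-base and 33-base Asp-GTC-2 tiRNAs lost their calls without SalB replicate 1 (adjusted p up to 0.0558 and 0.0825), the former also without replicate 2. The 31-base Pro tiRNA lost its call without SalB replicate 2 (adjusted p = 0.0630), where it has 0 reads, and the 30-base Pro tiRNA lost it in 6 of 15 alternatives, 5 of them without normal diet replicate 1, high fat diet replicate 1 or 3 or SalB replicate 1 or 3. The 29-base Gly-GCC tiRNA lost it in 9 of 15, 7 of them by leaving out any 1 library but high fat diet replicate 3 and SalB replicate 1. Calls among tiRNAs numbered 12 with the stricter filter, which leaves fewer tiRNAs to test.

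Summed over all its tiRNAs, Asp-GTC fell with SalB. Sums of reads of 1 origin within 1 family were fitted together, 179 in all, of which 15 were sums of tiRNAs. Under normal diet the Asp-GTC tiRNAs came to 22289.6, 25289 and 17770.3 CPM, under high fat diet to 10699.6, 16744 and 12269.9 and with SalB to 4969, 2455 and 9299. The 3 groups did not overlap. The difference passed for SalB against normal diet (log2 fold change -2.11 with SE 0.40, adjusted p = 0.00369, limma-voom) under all 18 alternatives. It passed for SalB against high fat diet (log2 fold change -1.40 with SE 0.42, adjusted p = 0.0356), where 9 of 18 alternatives lost it, 7 of them by leaving out 1 library (any but normal diet replicate 2 and SalB replicate 3), and the adjusted p rose to 0.114 at most. High fat diet against normal diet was not called (log2 fold change -0.72 with SE 0.38, adjusted p = 0.676).

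Gly-TCC, a glycine tRNA with 190 tiRNA reads, rose with SalB, at 281, 469 and 264 CPM under normal diet, 248, 564 and 491 under high fat diet and 1388, 897 and 787 with SalB (against high fat diet log2 fold change 1.31 with SE 0.41, adjusted p = 0.0388; against normal diet log2 fold change 1.64 with SE 0.41, adjusted p = 0.0133). Those calls were lost in 10 and 4 of 18 alternatives, total counts among them. They ended without normal diet replicate 1 in both comparisons, without any 1 high fat diet library or SalB replicate 1 in the first, and without normal diet replicate 3 in the second. Leu-AAG/Leu-TAG tiRNAs fell against normal diet on 2, 2 and 7 reads in the SalB libraries, at 366, 1151 and 709 CPM under normal diet and 55.5, 47.2 and 262 with SalB (log2 fold change -2.67 with SE 0.67, adjusted p = 0.0133). This sum passed the filter on low counts through the normal diet libraries and high fat diet replicate 2, so it was tested only because it is high under normal diet. Without normal diet replicate 3 or SalB replicate 1 the call was lost (adjusted p up to 0.0576). Glu-CTC came to 4325, 4251 and 8777 CPM under high fat diet and 11242, 102975 and 16274 with SalB and missed the threshold (log2 fold change 2.35 with SE 0.82, adjusted p = 0.0585). Gly-GCC came to 85529, 40732 and 107398 CPM under high fat diet and 65706, 106775 and 67233 with SalB (log2 fold change 0.07 with SE 0.45, adjusted p = 0.912). So 2 of 15 tiRNA sums were called for SalB against high fat diet and 3 of 15 against normal diet, beside 26.8% and 33.5% of all 179 sums. Between the diets 0 of 15 tiRNA sums were called (0% of the 179), with 3 at an unadjusted p under 0.05 and 0 by limma on log2 values.

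By the families' chemistry, the lists gave few calls. Of the 12 tested sums of families known for tiRNAs in serum, 1 (Asp-GTC) fell and 0 rose with SalB against high fat diet (median log2 fold change 0.10, beside 0.37 over all sums), and the same count held against normal diet (median -0.33, beside 0.32). Of the queuosine families Asp-GTC fell and His-GTG was not called, at 518, 954 and 2223 CPM under high fat diet and 1443, 4887 and 1237 with SalB (log2 fold change 1.05 with SE 0.64, adjusted p = 0.233, limma-voom). His-GTG reads placed on precursor references alone, which the rule leaves out, had group means of 9093, 7960 and 16325 CPM, beside 696, 1232 and 2523 for its tiRNAs. These precursor reads rose against high fat diet (log2 fold change 1.03 with SE 0.26, adjusted p = 0.0189, limma-voom). Where on the precursor they begin was not examined. Of the DNMT2 substrates Asp-GTC fell, Gly-GCC was not called, and Val-AAC had a log2 fold change of -0.21 (adjusted p = 0.808). Of the inosine families, Val-AAC was the only one with enough reads of its own to test.

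Other fragments of the same tRNAs were set beside the tiRNAs. For Asp-GTC with SalB against high fat diet, fragments of the 3′ end had a log2 fold change of 0.06 (adjusted p = 0.904, limma-voom) and internal fragments 0.47 (adjusted p = 0.197). The 5′ fragments of Asp-GTC outside the length limits had -0.87 (adjusted p = 0.197). Among these sums of Asp-GTC the tiRNAs were called in this comparison and the others were not. Against normal diet, where the tiRNAs fell, the internal fragments of Asp-GTC were called higher (log2 fold change 0.88 with SE 0.27, adjusted p = 0.0290, limma-voom). The difference between origins was not itself tested. The values that follow are again for SalB against high fat diet. For Gly-GCC, whose tiRNA sum was not called, the 5′ fragments outside 28 to 36 bases rose (log2 fold change 2.52 with SE 0.37, adjusted p = 0.00174) and internal fragments rose (log2 fold change 0.47 with SE 0.14, adjusted p = 0.0294). For Glu-CTC, the other 5′ fragments had 1.84 (adjusted p = 0.0522). For Lys-CTT the tiRNAs had 0.20 (adjusted p = 0.796) while its 3′ fragments fell (log2 fold change -1.21 with SE 0.29, adjusted p = 0.0171). Per library, the ratio of tiRNA reads to nuclear 5′ reads shorter than 28 bases was 2.93, 4.09 and 3.88 under normal diet, 2.54, 1.89 and 3.34 under high fat diet and 1.28, 0.917 and 2.42 with SalB. That ratio was below 1 in SalB replicate 2 alone.

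The other piece of a cut in the anticodon loop, a 3′ tiRNA starting at the matching bases and reaching the tRNA's end, was scarce. Such reads were 0.1, 0.116 and 0.0359% of tRNA reads under normal diet, 0.103, 0.124 and 0.0698% under high fat diet and 0.0321, 0.0186 and 0.0324% with SalB, or 13 to 57 reads a library. The SalB shares lay below all others, and the test over the 3 groups did not pass (exact permutation p = 0.104). With reads of the longest length counted as reaching the end, SalB replicates 1 and 3 (0.0626 and 0.0598%) lay above normal diet replicate 3 (0.0560%). The deposited reads stop at 40 bases, and a longer 3′ tiRNA would not be counted, so these values do not give the ratio of the pieces.

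Mismatches gathered at particular bases. Between 25.6 and 49.1% of tiRNA reads per library carried 1 mismatch, and 13.7 to 34.2% carried it at the last base, with SalB replicate 2 the lowest and SalB replicate 1 the highest in the latter. Among Gly-GCC tiRNAs of 31 bases 30.2% differed from the reference at the last base, and among those of 35 bases 37.9%. Such a read may end where it aligns or 1 base earlier with an added base, and the alignments do not tell these apart. Without mismatched reads the loop share differed between SalB and high fat diet by -27.7 percentage points, close to -25.6 with them. Inside the sequence, the most frequent change was G6T in Gly-GCC, found in 11.6 ± 1.58% of its tiRNA reads under normal diet, 12.3 ± 1.45% under high fat diet and 8.06 ± 2.07% with SalB (SD, n = 3 each). The SalB libraries had the lowest shares, and the test did not pass (exact permutation p = 0.05, adjusted over the 18 changes with at least 60 reads p = 0.305). In Asp-GTC the same change was found in 1.92% of tiRNA reads.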

How the data were processed

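Small RNA of mouse serum was sequenced in 9 libraries with a tRNA-fragment kit on an Illumina NextSeq instrument, per the labels' protocols. The submitters' processing notes list FastQC, cutadapt, Bowtie, edgeR and mm10, with no versions or roles. On adapter and alignment settings nothing is given in the sources used here. The authors deposited 1 alignment list per library: the values are 0-based offsets on tRNA references, and the count of each distinct read of 14 to 40 bases stands inside its name. Totals are reads on tRNAs, not library depth, and ranged from 28191 to 156333.

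Each read name was counted once. References were rebuilt from the reads, and the anticodon was found in 178 of 217 mature nuclear references; 22 of the 2810 tiRNAs (35 reads) had no aligned end. limma-voom (limma 3.58.1, R 4.3.3) was fitted to whole counts over 733 fragments (10 reads at the median depth in at least 3 libraries, 15 in all) or 179 sums, with TMM scaling computed from its definition and 1 spread for all groups. Shares used exact permutation tests (Python 3.11.15, numpy 2.4.6), two-sided. A count of 0 allows up to 3 reads, for counting error only. The procedure was tested on simulated data. For limma-voom these had 1 fixed spread and known library sizes, so they test neither the scaling nor an outlying library. Replicates of each group differed by more than sampling noise (chi-square per degree of freedom 3.01 to 26.1 over 128 tiRNAs). Deviations of same-numbered libraries correlated between -0.32 and 0.15, so no pairing by number was seen. With 3 libraries a group this cannot exclude that the numbers mark a shared batch.

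The tiRNAs, the family lists and the tests were chosen with earlier results of these data known. Named are the 10 most abundant tiRNAs, up to 6 called per comparison and direction with groups apart (or the 3 smallest p), the most abundant of each listed family and end variants of the 3 largest families. Some of the sequences this rule names are not reported here. Alternatives were no filter, a filter in 6 libraries, RLE factors, total counts, only the libraries compared, a replicate block, limma on log2 values with a pseudocount of 1, merged mismatch variants, reads of 1 family, 30 to 35 bases, other denominators and each library left out. The reading of longest reads as reaching the 3′ end was added after seeing the data.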

Additional observations from a re-analysis of the deposited data

How the results depend on the processing

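Direction was kept, or a count stayed within 1.5 times, in 262 of the 306 values recomputed for the main results. Whether a call held was not part of that number. For single families, tiRNAs and sums, 94 recomputed values lost the call and 2 gained it, beside 482 unchanged. For family shares and end positions among these, unchanged means direction alone. Of the 12 length and end measures, 4 passed, against 0 with families weighted equally and 0 to 7 with 1 library left out. Family shares gave 1 call (0 to 1 with 1 library left out). Family end positions gave 0 (2 without mismatched reads, 1 at a minimum of 50 reads, 0 to 3 with 1 library left out). tiRNAs called between the diets went from 0 to 12 with no filter. For SalB against high fat diet the 18 calls became 37 with total counts, 65 with no filter and 5 to 18 with 1 library left out. For SalB against normal diet the 23 became 43 with total counts, 96 with no filter, 12 with the stricter filter and 16 to 25 with 1 library left out. tiRNA sums called for SalB against high fat diet went from 2 to 4 with total counts, and to 1 with no filter, 0 in a fit of only the libraries compared, 1 at 30 to 35 bases and 0 to 4 with 1 library left out. Against normal diet they went from 3 to 1 to 5 with 1 library left out.

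The sign turned in 5 values, none past a test: the tiRNA share for SalB against high fat diet (1.77 points with nuclear mature reads as denominator), mean length and mean aligned end for SalB against normal diet (0.0572 and 0.0302 bases without SalB replicate 2, and down to -0.90 and -1.02 without replicate 1), and the complementary 3′ tiRNA share between the diets (-0.00700 points with the longest reads counted, -0.00904 without normal diet replicate 3, and up to 0.0310 without replicate 2). The causes were not tested. A fit with the replicate number as a block, which the titles share but by which no pairing was seen, called 0, 23 and 22 tiRNAs and 0, 1 and 3 tiRNA sums in the 3 comparisons. For SalB against high fat diet it ended the calls of the Asp-GTC and Gly-TCC sums (adjusted p = 0.0561 and 0.0640), and the 1 sum it called was another. The shallowest library had 1943 tiRNA reads, so that a tiRNA with 0 reads there may hold up to 0.154% of them.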
